A study of Homo sapiens with 4 samples.

Results

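Peaks of p53 binding were described at 7 genes that p53 is known to regulate, grouped as sestrins and redox, metabolic and autophagy targets. They are SESN1, SESN2, TIGAR, GLS2, DRAM1, TP53I3 and FDXR. The genes were listed by symbol, with earlier results of these peak lists known, and a gene was called in a library when a peak summit lay inside it or within 10 kb of it in the RefSeq annotation of GRCh38. They are 7 of 20037 protein-coding genes on chromosomes 1 to 22, X and Y, and 13 of the 11488 peaks of the series lay at them. The peaks came from 4 ChIP-seq libraries of H1299, an established human lung carcinoma line that lacks p53 of its own and in which p53 was expressed. In the 2 p53WT libraries (p53WT 1 and p53WT 2) the cells expressed wild-type p53, and in the 2 CASM34 libraries (CASM34 1 and CASM34 2) the mutant of that name. The series title concerns cancer-associated synonymous mutations, which alter the codon and not the amino acid. All 4 libraries share the p53-null genotype and the precipitation with the p53 antibody DO-1. No drug or dose is labelled, how the p53 forms were delivered is not given in the sources used here, and cells without p53 were not analysed here.

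p53 is a transcription factor that binds DNA as a tetramer, through a pair of short copies of a motif called the p53 half-site, and raises transcription of the genes it regulates. Beside genes that halt or kill the cell, it acts on genes that limit oxidative damage, steer glucose and glutamine use, and drive autophagy, the digestion of the cell's own parts. The sestrins SESN1 and SESN2 restrain the growth kinase mTORC1 and support antioxidant defence. TIGAR is a phosphatase that lowers fructose-2,6-bisphosphate and so slows glycolysis, GLS2 is a mitochondrial glutaminase, and DRAM1 is a lysosomal membrane protein that promotes autophagy. TP53I3, also called PIG3, is a quinone oxidoreductase-like enzyme linked to reactive oxygen, and FDXR is the mitochondrial ferredoxin reductase.

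p53WT 1 listed 1604 peaks and p53WT 2 listed 4961, while CASM34 1 listed 1712 and CASM34 2 listed 3211. They carry no read counts, so depth is unknown, and a gene without a peak is one where none was listed, not one shown to be free of p53. Each peak has the authors' fold, the ratio of signal over background, and their −log10 q, which was at least 1.31 in every list and is higher for peaks of lower q-value. These values are used to describe and rank peaks within a list, and to set the same −log10 q cut in every list. Where values of different lists stand side by side, this is description only, since the lists may differ in depth. Nothing in the labels says that replicates came from separate cultures, so a test over the 4 libraries may rest on technical spread alone.

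Sequences at starts of SESN1, FDXR and TIGAR are printed first for reference, and no peak call rests on them. They are RefSeq promoter windows of GRCh38.p14, 250 bases before to 50 after an annotated start, written 5′ to 3′ on the strand of the gene. SESN1 has 3 such starts, at 109094846, which is its 5′ gene end, and inside the gene at 109009552 and 109008988. In the first pair the capitals mark an exact p53 half-site. They are shown because they were the only windows, of 10 for the 7 genes, that held one. The SESN1 window is that of the start at 109008988 (chr6:109008939-109009238, minus strand), and the FDXR window is that of the start at 74872994 (chr17:74872945-74873244, minus strand).
SESN1: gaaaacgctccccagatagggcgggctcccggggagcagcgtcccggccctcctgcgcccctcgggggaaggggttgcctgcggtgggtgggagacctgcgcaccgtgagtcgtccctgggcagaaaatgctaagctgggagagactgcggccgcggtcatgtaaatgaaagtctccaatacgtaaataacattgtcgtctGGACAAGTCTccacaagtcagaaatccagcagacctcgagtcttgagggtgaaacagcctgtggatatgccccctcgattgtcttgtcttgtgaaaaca
FDXR: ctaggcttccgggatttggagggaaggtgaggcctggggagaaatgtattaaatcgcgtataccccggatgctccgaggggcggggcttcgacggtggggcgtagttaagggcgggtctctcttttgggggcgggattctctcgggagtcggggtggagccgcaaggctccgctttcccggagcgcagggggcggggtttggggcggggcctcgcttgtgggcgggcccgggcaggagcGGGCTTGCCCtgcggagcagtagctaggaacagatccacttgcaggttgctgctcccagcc
In the second pair the capitals mark bases inside every peak that reached the window. They are shown to place the peaks called in more than 1 library. The SESN1 window is that of the start at 109009552 (chr6:109009503-109009802, minus strand), where the last 18 bases lay in the peaks of 3 libraries. The TIGAR window (chr12:4320963-4321262, plus strand) ends with 50 bases that lay in the peak of p53WT 2.
SESN1: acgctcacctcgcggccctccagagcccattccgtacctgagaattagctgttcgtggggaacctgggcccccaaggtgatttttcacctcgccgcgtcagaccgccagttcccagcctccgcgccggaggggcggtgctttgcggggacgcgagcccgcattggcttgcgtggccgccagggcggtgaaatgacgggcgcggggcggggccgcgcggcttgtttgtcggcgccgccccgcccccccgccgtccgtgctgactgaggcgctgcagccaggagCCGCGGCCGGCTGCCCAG
TIGAR: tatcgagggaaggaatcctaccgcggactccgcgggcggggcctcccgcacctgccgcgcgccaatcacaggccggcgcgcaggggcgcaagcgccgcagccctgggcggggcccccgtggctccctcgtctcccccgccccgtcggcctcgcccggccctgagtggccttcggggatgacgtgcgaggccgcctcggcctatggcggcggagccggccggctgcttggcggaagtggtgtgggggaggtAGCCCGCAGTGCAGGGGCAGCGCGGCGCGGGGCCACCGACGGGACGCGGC

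SESN1 was the one of the 7 genes that carried peaks in 3 libraries, and it carried most of the peaks. The gene spans 108984309 to 109094846 on chromosome 6, minus strand, a length of 111 kb. It held 4 summits in CASM34 2, 2 in p53WT 1, 1 in p53WT 2 and none in CASM34 1, which is 7 of the 13 summits at the 7 genes. Of these 7, 6 were gene-body summits, inside the gene and over 1 kb from both of its ends, and 1 was a gene-end summit, within 1 kb of an end. Genes called in at least 3 libraries were 1.29% of all protein-coding genes (259 of 20037). The plot of SESN1 summits by library shows the 3 places at which they lay.

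**Figure D1:**
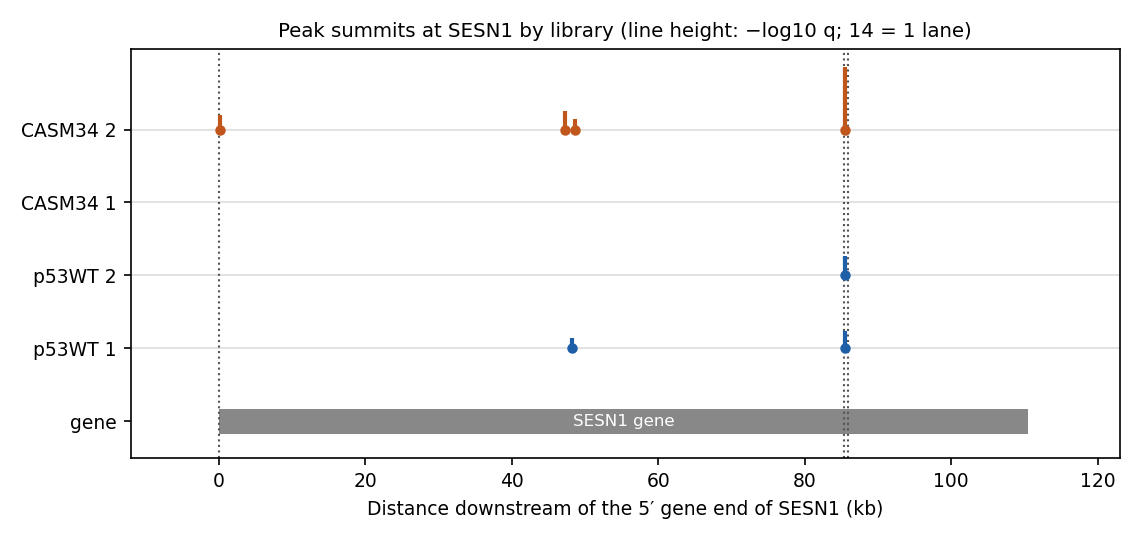
Summits at SESN1 in each library, plotted by distance in kb downstream of the 5′ gene end; each point is a summit, the line above it rises with the deposited −log10 q, and dotted lines are the 3 RefSeq starts. Summits of p53WT 1, p53WT 2 and CASM34 2 line up at 85.4 to 85.5 kb beside the pair of internal starts, those near 48 kb were in p53WT 1 and CASM34 2, the gene end had a summit in CASM34 2, and CASM34 1 had none.

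The place shared by 3 libraries was the internal start region. The short SESN1 transcripts that begin inside the gene are known as those that respond to p53. Summits lay at 109009384 in p53WT 1, at 109009421 in p53WT 2 and at 109009309 in CASM34 2. They were 168, 131 and 243 bp downstream of the start at 109009552, and all lay between it and the second internal start. The peaks ran from 109009289 to 109009520 in p53WT 1, from 109009106 to 109009538 in p53WT 2 and from 109009078 to 109009540 in CASM34 2. The p53WT 1 peak lay wholly inside both others, and 93.5% of the CASM34 2 peak was covered by that of p53WT 2. Summits were 37 bp apart between the p53WT libraries, 75 bp between p53WT 1 and CASM34 2, and 112 bp between p53WT 2 and CASM34 2. The peaks of the libraries numbered 2 were also the wider ones, at 433 and 463 bp against 232 bp in p53WT 1.

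The deposited values of this peak differed between lists. Its fold was 5.24 in p53WT 1, 5.44 in p53WT 2 and 8.77 in CASM34 2. Its −log10 q was 3.43, 3.73 and 11.9 in the same order. In CASM34 2 it ranked 524 of 3211 peaks, above 83.7% of the list, and was the highest-ranked of all 13 summits. It ranked 1655 of 4961 in p53WT 2, above 64.1%, and 1283 of 1604 in p53WT 1, above 20.0%. The p53WT 1 and p53WT 2 peaks thus had close folds and q-values and unlike ranks, as the lists differ in length and in make-up. CASM34 1, the other library of the mutant, listed nothing at SESN1, and its nearest summit was 3.85 Mb away. The higher value of CASM34 2 therefore stands for 1 library and was not compared between groups.

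Peaks at an annotated start were rare in the libraries numbered 1, and SESN1 was one of the few. In p53WT 1, 26 of 1604 peaks lay within 1 kb of a RefSeq start of a protein-coding gene, and 12 of those 26 were overlapped by a peak in both p53WT 2 and CASM34 2. The SESN1 peak was 1 of the 12. By that start rule 0.177% of the genes with a start in the RefSeq promoter table were called in p53WT 1, against 10.0% in p53WT 2, 0.391% in CASM34 1 and 6.49% in CASM34 2. By it 1, 4, 0 and 4 of the 7 genes were called in the same order.

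The middle of the gene held a second group of summits, which were close and did not overlap. They lay at 109046648 in p53WT 1 and at 109046267 and 109047510 in CASM34 2, some 47.3 to 48.6 kb downstream of the 5′ gene end. The p53WT 1 summit was 381 and 862 bp from the other two. Folds were 4.35 in p53WT 1 and 4.27 and 5.17 in CASM34 2, with −log10 q of 2.02, 2.05 and 3.59. The p53WT 1 peak ranked 1494 of 1604, near the bottom of its list. The nearest RefSeq start of SESN1 was 36715 bp or more away. These summits, and those at the internal starts, also lie inside ARMC2, a gene that overlaps SESN1 and spans 108848422 to 109053040.

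The gene-end summit of SESN1 was in CASM34 2 alone. It lay at 109094705, 141 bp downstream of the start at the 5′ gene end, in a peak from 109094645 to 109094866 that spans that start. Its fold was 4.69 and its −log10 q 2.72, against 8.77 and 11.9 at the internal starts in the same library. A neighbouring gene, CEP57L1, has its start 458 bp from the summit, so the peak has more than 1 candidate gene. No gene-end summit was listed in either p53WT library or in CASM34 1. In CASM34 2 only 32 of 20037 genes (0.160%) held 4 or more summits as SESN1 did, a count that grows with gene length.

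SESN2, the other sestrin gene of the set, was called in none of the 4 libraries. It spans 28259518 to 28282491 on chromosome 1. The nearest summits lay 371.9 kb away in p53WT 2, 455.0 kb in CASM34 2, and 3.15 Mb away in p53WT 1 and CASM34 1. No peak in any list was thus within 50 kb of it, a state shared with most genes, since 15592 protein-coding genes (77.8%) had no call in any library. Its promoter window held no p53 half-site, exact or with 1 mismatch.

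The metabolic genes TIGAR and GLS2 carried peaks near their starts in libraries numbered 2. TIGAR, on chromosome 12 (4321213 to 4360028, plus strand), was called in p53WT 2 and CASM34 2. Summits lay at 4321293 and 4321340, 80 and 127 bp downstream of its start and 47 bp apart. The p53WT 2 peak, from 4321213 to 4321379, and the CASM34 2 peak, from 4321297 to 4321583, overlapped by 83 bp, which was 49.7% and 28.9% of their lengths. Both were weak, with folds of 4.16 and 3.64 and −log10 q of 2.10 and 1.40, and in CASM34 2 the peak ranked 3138 of 3211. TIGAR and SESN1 were the 2 of the 7 genes called in both libraries numbered 2, against 5.43% of all protein-coding genes.

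GLS2, on chromosome 12 (56470952 to 56488161, minus strand), was called in p53WT 2 alone. Its summit at 56487613 lay 548 bp downstream of its start, the farthest of the summits near a start, with a fold of 5.00 and a −log10 q of 3.15. The nearest CASM34 2 summit lay 212.5 kb outside the gene. A non-coding gene, LOC124902944, ends 281 bp from the GLS2 summit.

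The autophagy gene DRAM1, on chromosome 12 (101877580 to 101923612, plus strand), was also called in p53WT 2 alone. Its summit at 101877721 lay 141 bp downstream of its start, with a fold of 4.21 and a −log10 q of 2.02. It ranked 3735 of 4961, and the nearest summit of CASM34 2 was 3.18 Mb away.

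The redox genes TP53I3 and FDXR were called in CASM34 2 alone. TP53I3, on chromosome 2 (24077433 to 24084834, minus strand), had the widest of the 13 peaks, 563 bp from 24084111 to 24084673. Its summit at 24084504 lay 330 bp downstream of the start, with a fold of 4.79 and a −log10 q of 3.32. The summit also lay inside FAM228B, which overlaps TP53I3. The nearest p53WT 2 summit was 136.8 kb outside TP53I3.

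FDXR, on chromosome 17 (74862497 to 74872994, minus strand), had a summit at 74872872, 122 bp downstream of its upstream start, with a fold of 4.68 and a −log10 q of 3.17. The peaks of TP53I3 and FDXR ranked 1784 and 1867 of 3211, close to the middle of the list. The nearest p53WT 2 summit was 309.8 kb outside FDXR, and the nearer end of FADS6 lay 1915 bp from the FDXR summit.

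**Figure D2:**
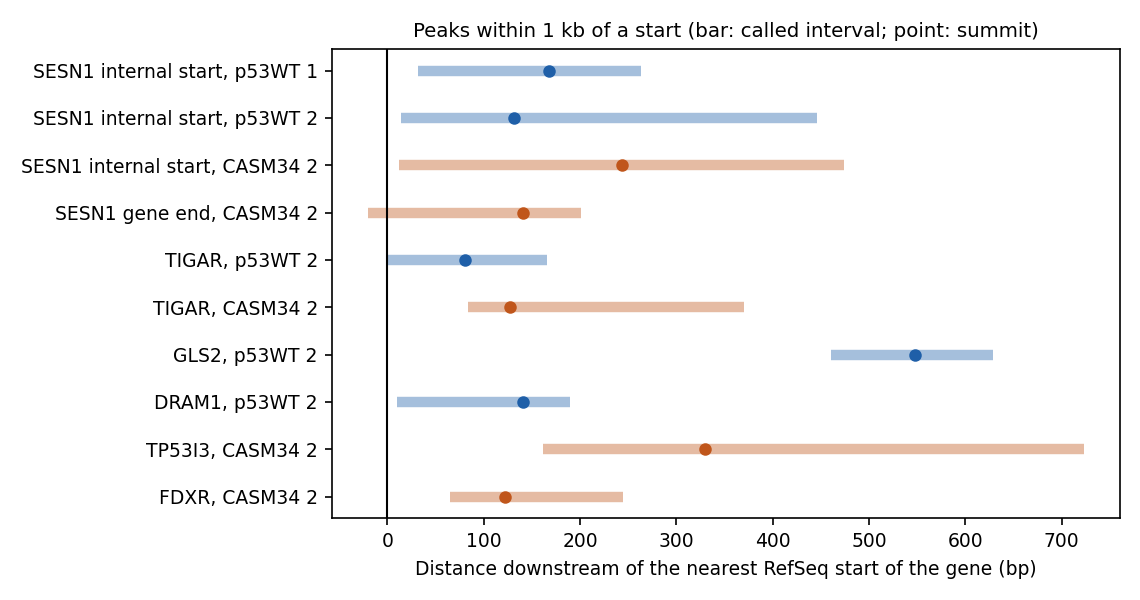
Peaks of the 6 called genes within 1 kb of a RefSeq start, plotted by distance in bp downstream of that start; bars are the called intervals, points the summits, blue p53WT and orange CASM34. All 10 summits lie downstream of the nearest start of their gene, from 80 bp (TIGAR, p53WT 2) to 548 bp (GLS2, p53WT 2).

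What the called genes shared, and the rule did not use, was the side of the nearest start. Of the 13 summits 10 lay within 1 kb of a RefSeq start. All 10 lay downstream of the nearest start of their gene, inside the gene, at 80 to 548 bp. This was the usual side in these lists, since 78.8% of such summits in p53WT 2 and 80.0% in CASM34 2 were downstream over all protein-coding genes, at a median of 156 and 178 bp. The summits at the SESN1 internal starts are the same place in p53WT 1, p53WT 2 and CASM34 2. They also lie within 1 kb upstream of the farther internal start, at 109008988, so their side depends on the start chosen. The other 3 of the 13 summits were those in the middle of SESN1. No summit lay in the 10 kb outside a member gene.

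Counted by gene, the 7 genes were called as often in p53WT 2 as in CASM34 2. Called were 1 of 7 in p53WT 1 (SESN1), 4 in p53WT 2 (SESN1, TIGAR, GLS2 and DRAM1), 0 in CASM34 1 and 4 in CASM34 2 (SESN1, TIGAR, TP53I3 and FDXR). By the same rule the libraries p53WT 1 and p53WT 2 called 1.39% and 16.2% of all protein-coding genes, and CASM34 1 and CASM34 2 called 1.67% and 10.9%. The counts in p53WT 2 and CASM34 2 lie above those shares. The genes were chosen with results of these lists known, so the counts were not tested against the shares. Called in at least 1 library were 6 of the 7 genes and 22.2% of all. Within 1 kb of either gene end 9.14% of all genes were called in p53WT 2, 6.04% in CASM34 2, 0.284% in p53WT 1 and 0.414% in CASM34 1, with 3, 4, 0 and 0 of the 7.

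Group means of these counts lay closer together than the SD within either group. With so few libraries, and genes chosen with these lists known, the tests below cannot decide whether the groups differ. The number of genes called was 2.5 ± 2.12 (SD, n = 2) for the wild type and 2 ± 2.83 (SD, n = 2) for CASM34. The two-sided exact permutation test gave p = 1, where 0.333 is the smallest that 2 against 2 libraries allow. Summits averaged 3 ± 1.41 (SD, n = 2) and 3.5 ± 4.95 (SD, n = 2), also with an exact permutation p of 1. Within number 1 p53WT minus CASM34 was 1 gene, and within number 2 it was 0. By the number in the titles the counts were 1 and 0 genes in the libraries numbered 1 and 4 and 4 in those numbered 2. With lists of equal length they were 1 and 0 against 0 and 1. Of all protein-coding genes, p53WT 1 and CASM34 1 then called 1.39% and 1.38%, against 3.53% in p53WT 2 and 3.94% in CASM34 2. The gap between the numbers thus remained over all protein-coding genes. At such low shares so small a gene set cannot show whether the gap also remained within it. What sets the libraries numbered 1 and 2 apart was not tested.

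**Figure D3:**
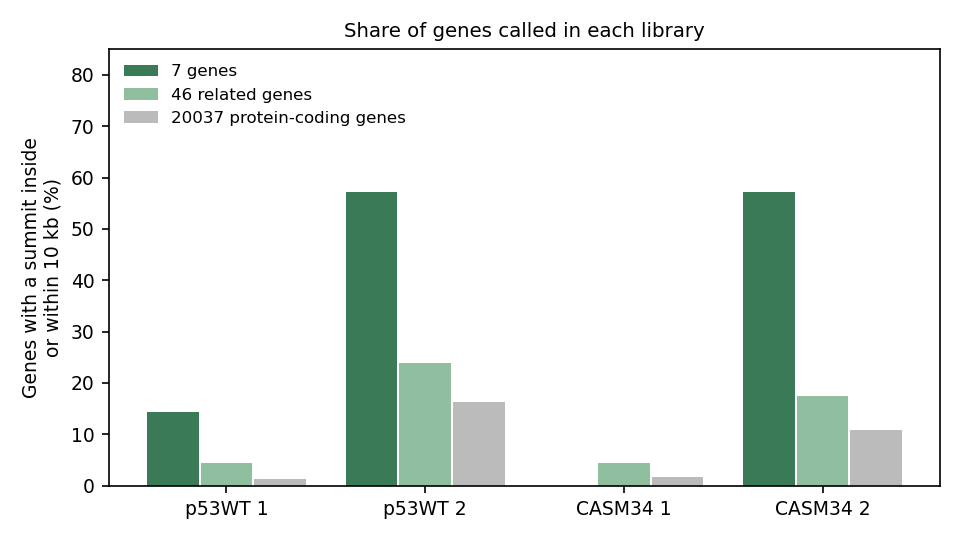
Percent of genes with a summit inside or within 10 kb in each library, for the 7 genes, 46 related genes and all 20037 protein-coding genes. Bars for the 7 genes stand for 1, 4, 0 and 4 genes, and all 3 sets are higher in the libraries numbered 2.

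Fewer of these calls were left in shorter lists or at higher thresholds. With each list held to its best 1604 peaks, the libraries p53WT 2 and CASM34 2 called 0 and 1 of the 7 genes. Of all protein-coding genes they then called 3.53% and 3.94%. SESN1 alone was left, in p53WT 1 and CASM34 2. The SESN1 peak of p53WT 2 ranked 1655 of 4961 and so fell just past the cut. At a −log10 q of at least 5 SESN1 in CASM34 2 was the only call among the 7 genes, where 1.74% of all protein-coding genes were called in CASM34 2, 1.83% in p53WT 2, 0.599% in p53WT 1 and 0.664% in CASM34 1. At a −log10 q of at least 3 these shares were 5.54%, 6.48%, 0.903% and 0.958%. SESN1 was then called in the same 3 libraries, GLS2 in p53WT 2, and TP53I3 and FDXR in CASM34 2, while TIGAR and DRAM1 were not called. The absence of GLS2 and DRAM1 from CASM34 2, or of TP53I3 and FDXR from p53WT 2, is therefore no shown difference in binding.

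**Figure D4:**
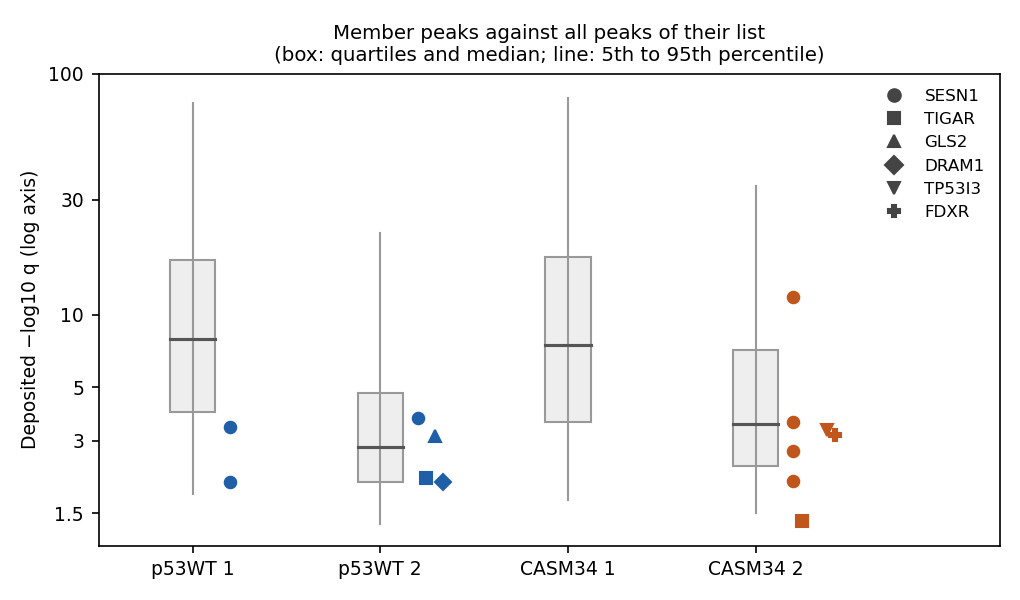
Deposited −log10 q (log axis) of the member peaks, by gene symbol, beside all peaks of their list (box for quartiles and median, line for the 5th to 95th percentile). Medians of the lists are 7.90, 2.82, 7.52 and 3.51, the member peaks run from 1.40 to 11.9, and the SESN1 internal-start peak of CASM34 2 is the one far above the rest.

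Over the 13 summits the fold ran from 3.64 to 8.77 with a median of 4.69, and the −log10 q from 1.40 to 11.9 with a median of 3.15. Peaks within 1 kb of a protein-coding start had median −log10 q of 2.73 in p53WT 2 and 2.70 in CASM34 2. The member peaks of p53WT 2 lay on both sides of that value, with SESN1 and GLS2 above it and TIGAR and DRAM1 below it. Of the CASM34 2 peaks near a start, SESN1 at both of its places, TP53I3 and FDXR lay above it and TIGAR below.

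The promoter windows of the 7 genes were searched for p53 motifs. An exact p53 half-site, searched on both strands, was in 2 of the 10 windows and in 6.23% of 22078 windows of 300 bases of protein-coding genes. In SESN1 it read GGACAAGTCT, at 109009028 to 109009037, 49 bases before the start at 109008988. It lay outside the called intervals, 41 bp from the peak of CASM34 2, 69 bp from that of p53WT 2 and 252 bp from that of p53WT 1. A half-site with 1 mismatch, GGGGTTGCCT at 109009159 to 109009168, lay inside the peaks of p53WT 2 and CASM34 2. With at most 1 mismatch, 61.1% of all windows held a half-site. In FDXR the exact half-site read GGGCTTGCCC, at 74872996 to 74873005, 11 bases before the start and 67 bp outside the CASM34 2 peak. A pair of exact half-sites at most 13 bases apart was in none of the 10 windows and in 0.0181% of all. With at most 1 mismatch in each half-site, such a pair was in the windows of GLS2 and of the SESN1 start at 109094846. It was in 4.54% of all windows. At GLS2 these half-sites lay 412 to 604 bp outside the p53WT 2 peak. At that SESN1 start they lay 192 and 213 bp outside the CASM34 2 peak. CATG, 1 form of the half-site core, was in the window of the SESN1 start at 109008988 and in that of GLS2, and in 49.6% of all windows. Neither exact half-site above holds it. A match is not a bound site, and a window without one shows only that the letters are not in those 300 bases. The sequences under the rest of the peaks were not used here.

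Base composition of the windows was close to that of others. GC content ran from 54.3% at TP53I3 to 78.0% at TIGAR with a median of 67.2%, against a median of 62.3% over all windows.

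Other redox, metabolic and autophagy genes linked to p53 were followed with a list of 46 genes, all of which matched RefSeq. In p53WT 2, 11 of the 46 were called and in CASM34 2, 8 of 46. In p53WT 1 and CASM34 1 it was 2 each. As shares these are 23.9%, 17.4%, 4.35% and 4.35%, beside 16.2%, 10.9%, 1.39% and 1.67% of all protein-coding genes. Called in both libraries numbered 2 were 6 of the 46, and in both numbered 1 there were 0. With lists of equal length the counts of p53WT 2 and CASM34 2 were 2 and 5 of 46, beside 3.53% and 3.94% of all protein-coding genes.

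Genes with the call pattern of a member over the 4 libraries were counted as a measure of likeness. The pattern of SESN1 was shared by 64 protein-coding genes (0.319%, itself included), that of TIGAR by 842 (4.20%), that of GLS2 and DRAM1 by 2065 (10.3%) and that of TP53I3 and FDXR by 1046 (5.22%). Among the 46 related genes with a summit within 1 kb of a gene end, TIGAR shared its pattern with PRKAB2, a subunit of the energy sensor AMPK, and with the autophagy genes ULK2 and ATG2B. PRKAB2 had summits 140 bp from its start in p53WT 2 and 340 bp in CASM34 2, and ULK2 had them at 320 and 455 bp. Those of ATG2B lay 96 bp inside its start and 284 bp outside it. Their −log10 q ran from 1.51, for ATG2B in p53WT 2, to 5.49, for ATG2B in CASM34 2. GLS2 and DRAM1 shared theirs with the mTORC1 inhibitor DDIT4 and with the autophagy gene UVRAG, among others. TP53I3 and FDXR shared theirs with HK2, a hexokinase, and ABCA1, a cholesterol exporter. SESN1 shared its own with SOD2, among others.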

How the data were processed

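ChIP-seq peaks of p53 were analysed in 4 libraries of H1299 cells, 2 per group. Per the labels' protocols, micrococcal nuclease and sonication fragmented the chromatin. GRCh38, bedtools, Bowtie2 and Trim Galore are named in the submitters' processing notes. The peak caller, its control and its threshold were not given in the sources used here. Each library has its own deposited list. For each peak the deposited lists give a score, a fold (a ratio of signal over background), a −log10 p and a −log10 q. All of these are the authors' values.

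Only chromosomes 1 to 22, X and Y were kept and rows of the same interval were counted once, at the summit of highest −log10 p. Genes came from RefSeq (GRCh38.p14). Starts and promoter windows came from a RefSeq promoter table that covers 15843 of the 20037 protein-coding genes. Group means were compared by an exact two-sided permutation test over libraries. The depth of each library is unknown. As a check of its code alone, the gene caller was run on simulated summits planted by the same 10 kb rule. It found 200 of 200 planted genes among 20037, which does not bear on missed or false peaks in the lists. Python 3.11.15 and pandas 2.3.3 were used.

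The members and lists were chosen with earlier results of these data known. All 7 genes were named. Some items that the rule below names are not reported here. Of the related list, genes were named when called in both libraries of a group or of a number, or when they shared a member's pattern of calls with a summit within 1 kb of a gene end. Genes within 10 kb of a member summit were named where a peak had more than 1 candidate gene. Alternatives were other thresholds, equal list lengths, other windows, whole intervals, a stricter overlap, 1 mismatch in a motif and each library left out. Using every row, and starts in place of genes, was added after seeing the data.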

Additional observations from a re-analysis of the deposited data

How the results depend on the processing

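Of 120 recomputed values 82 were classed as the same, 33 as moved and 5 as turned in direction. Counts were classed by size. Differences between groups were classed by sign alone, with 0 as moved, so one classed as the same could still change in size. The difference in genes called, p53WT minus CASM34 (0.5), was 0 at a −log10 q of at least 3, -0.5 at 5 and 0 with lists of equal length, and ran from -1.5 to 2.5 with 1 library left out. It was below 0 without p53WT 2 (-1) and without CASM34 1 (-1.5). The difference in summits (-0.5) was 0 with equal lists and with summits within 1 kb of a RefSeq start, and ran from -4 to 3 with 1 library left out, turning to 0.5 without p53WT 1 and to 3 without CASM34 2. With 2 against 2 or 1 against 2 libraries no exact permutation p can be below 0.333, so these p-values do not bear on stability. With the replicate block, which pairs libraries by the number in their titles, the differences were 0.5 and -0.5 (exact sign-flip permutation p = 1 for both, smallest possible 0.5). The labels do not say that a number marks a shared batch or day.

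With −log10 q held to 3 or more, the genes called in p53WT 2 were 2, SESN1 gene-end summits were 0, and related genes called were 1, 3, 0 and 5 in p53WT 1, p53WT 2, CASM34 1 and CASM34 2. At 5 the genes called were 0 in p53WT 1, 0 in p53WT 2 and 1 in CASM34 2, SESN1 kept 0 gene-end and 1 gene-body summit, shared positions were 0, and related genes were 1, 2, 0 and 3. With lists of equal length p53WT 2 had 0 genes and CASM34 2 had 1, SESN1 gene-end summits were 0, shared positions 1, and related genes 2 in p53WT 2 and 5 in CASM34 2. Fewer peaks enter these counts by construction, and the shares of all protein-coding genes at these settings are given above. Within 2 kb CASM34 1 had 1 related gene. With 1 library left out, SESN1 gene-end summits were 0 to 1, gene-body summits 3 to 6 and overlapping pairs 1 to 4, the lowest pair count without p53WT 2 or CASM34 2. With 1 mismatch allowed 9 of the 10 promoter windows held a half-site, as did 61.1% of all windows. The lists limit all of this: without read counts, weak binding and no binding look alike.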

Other observations

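Among the 46 related genes, TP53INP1 and SOD2 had peaks in 3 libraries. TP53INP1, which acts in autophagy and in the p53 response, was called in p53WT 2, CASM34 1 and CASM34 2, and was the only one of the 46 called in both CASM34 libraries. Its summits on chromosome 8 lay at 94949199 and 94949921 in p53WT 2, at 94949813 in CASM34 1 and at 94949659 in CASM34 2. All were within 543 bp of one end of the gene, and their −log10 q ran from 2.58 to 4.59. Like SESN1 it thus had a peak in a library numbered 1, here in the other group.

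SOD2, the mitochondrial superoxide dismutase, was called in the same 3 libraries as SESN1. Its summits at 159711158 in p53WT 1 and 159711159 in CASM34 2 nearly coincided, and 1 of the 4 summits of p53WT 2 lay at 159711506 in an overlapping peak. The −log10 q of these 3 peaks were 6.82, 8.37 and 10.79, and they lay inside the annotated SOD2 gene, 15444 bp or more from its nearest RefSeq start. The other 3 summits of p53WT 2 lay nearer to starts, at 159693350, 159727600 and 159761592, which is 109, 216 and 689 bp from one. Their −log10 q were 2.81, 6.20 and 1.35.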
